A study of Mus musculus with 8 samples.

Results

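Fibroblast growth factor (FGF) signalling was followed through 10 genes in ribosome-bound RNA of the mouse collecting duct lineage, comparing ischemia and reperfusion injury (IRI) with sham surgery. The 10 genes are the ligands Fgf1, Fgf2 and Fgf9, the intracellular family member Fgf12, the receptors Fgfr1, Fgfr2, Fgfr3 and Fgfr4, and the Klotho co-receptors Kl and Klb. They were chosen by gene symbol, and all 10 had a line among the 24421 genes counted. The 4 IRI mice had 30 min of clamping of the renal pedicles, and their kidneys were taken 9 h after injury, while the 4 sham mice had the same surgery with no clamp. All 8 were males of 10 to 16 weeks in which HoxB7-Cre had switched on a mCherry-tagged ribosomal protein from Gt(ROSA)26Sor-mCherry-Rpl10a, so both groups carried the tag. HoxB7-Cre marks every derivative of the mesonephric duct, which includes the ureteral epithelium beside the collecting duct, and frozen whole kidneys were the input for the pulldown with anti-RFP beads.

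FGFs are secreted proteins that bind receptor tyrosine kinases together with heparan sulfate on the cell surface, and the receptors then pass the signal to the Ras-MAPK cascade, whose targets include feedback inhibitors of the same cascade. The endocrine FGFs bind heparan sulfate weakly and need a Klotho protein beside the receptor. Klotho, the product of Kl, is made above all in the kidney, where it serves FGF23 in the handling of phosphate and vitamin D, while beta-Klotho, the product of Klb, serves FGF21 and, in mice, FGF15.

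Of the 10 genes, Fgf2, Fgfr1, Fgfr2 and Fgfr4 were higher after IRI and Fgf9 was lower, at an adjusted p of at most 0.01 in edgeR's quasi-likelihood test over all genes tested. Fgf1, Fgf12, Fgfr3, Kl and Klb did not pass that test. Over all 14606 genes tested, 49.7% passed it, with 25.1% higher and 24.6% lower after IRI, so 5 of 10 was a share like that of the whole transcriptome. The median log2 fold change was 0.21 over the 10 genes and -0.01 over all genes tested. All 10 genes passed the filter on low counts, but Fgf2 did so only through its IRI libraries. With counts scaled by library totals alone, 2 genes were called higher and 2 lower, because Fgfr1 and Fgfr4 lost their calls and Fgfr3 gained one. That scaling moved the median of all genes to -0.20 and the share of higher calls to 36.2%, against 50.5% with the TMM scaling used throughout.

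**Figure D1:**
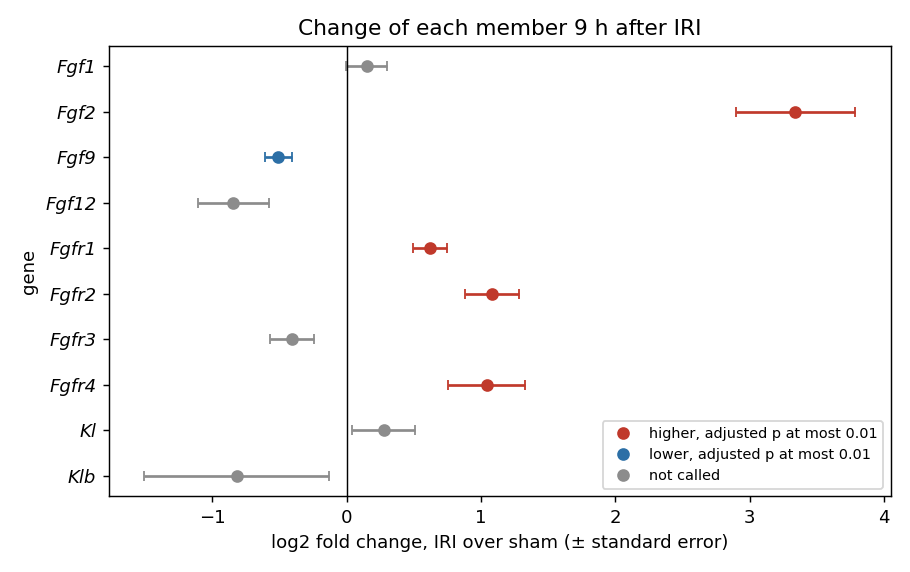
Log2 fold change of each of the 10 genes, IRI over sham (x axis), with the gene on the y axis and bars of 1 standard error from limma-voom (n = 4 mice per group). Fgf2, at 3.34, lies far to the right of the other genes, Fgfr2 and Fgfr4 lie near 1.08 and 1.04, and Fgf9 is the called gene left of 0.

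Gene counts ran from 13518005 to 27496808 in IRI libraries and from 25210299 to 29285812 in sham libraries. CPM is the count of a gene per 1000000 counts in genes, scaled by TMM, and is given as mean ± SD over 4 mice. Log2 fold changes carry a standard error (SE) from limma-voom, and p-values test the difference between the groups against the spread between these mice. Markers of cell types outside the HoxB7 lineage were present in all libraries. Summed CPM of 21 proximal tubule markers was 15290 to 30410 after IRI and 10590 to 13810 in sham, with 14 of 21 higher and none lower. All 14 principal cell markers were lower, at a summed 2361 to 4334 CPM in IRI mice and 13490 to 17550 CPM in sham mice, and all 15 intercalated cell markers were lower too. Endothelial markers summed to 425 to 861 CPM in IRI mice and 250.4 to 359 CPM in sham mice, with 8 of 14 higher. Of 9 neutrophil markers tested, 8 were higher, as were 4 of 11 macrophage markers. Over all genes tested, 25.1% were higher and 24.6% lower. Among the neutrophil markers, Ngp had 0 counts in every sham library, Retnlg had 3 to 10 and Cxcr2 had 6 to 19. Such genes passed the filter on low counts because of their IRI libraries, so 8 of 9 is a description and not a test. The summed fibroblast and pericyte markers stood apart in IRI replicate 2, at 1720 CPM against 318 to 621 CPM in the other IRI libraries. The collagen genes Col3a1 and Col1a1 had the most counts of that list there (10887 and 4644). Of its 13 markers, 1 was called higher and 0 lower. No listed marker of these types was at 0 in all libraries. In such bulk RNA, fewer cells of a type and less RNA per cell cannot be told apart. Nor can either be told apart from a change in how much RNA from outside the HoxB7 lineage came through the pulldown. The numbers in the submitters' file names, whose meaning was not stated, form a low series with IRI replicates 1 to 3 and sham replicate 1. The high series holds IRI replicate 4 and sham replicates 2 to 4. That series was treated as a possible batch.

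Levels of different genes were compared as CPM per kb of exon. Kl, at 68.6 ± 23.4 CPM per kb after IRI and 56.6 ± 9.10 CPM per kb in sham, had the highest level of the 10 genes in every library. After IRI it was followed by Fgfr2 at 27.1 ± 7.12, Fgf1 at 19.0 ± 3.17 and Fgfr1 at 14.4 ± 1.76 CPM per kb. In sham the order was Fgf1 at 17.1 ± 2.70, Fgfr2 at 12.8 ± 2.52 and Fgfr1 at 9.36 ± 1.51 CPM per kb. Fgfr2 exceeded Fgf1 in 4 of 4 IRI libraries and Fgf1 exceeded Fgfr2 in 4 of 4 sham libraries, although the ranges of these neighbours overlapped in both groups. In IRI replicate 3 Fgfr2 was at 20.7 and Fgf1 at 20.1 CPM per kb. Exon lengths here merge all annotated transcripts of a gene, so the order of close neighbours depends on them. The next genes after IRI were Fgfr4 at 5.23 ± 1.85, Fgf9 at 4.94 ± 0.639 and Fgfr3 at 4.62 ± 0.618 CPM per kb, which overlapped one another. In sham, Fgf9 at 7.03 ± 0.434 and Fgfr3 at 6.11 ± 1.403 CPM per kb overlapped each other and both lay above Fgfr4 at 2.54 ± 0.512 CPM per kb. Fgf12 followed at 1.04 ± 0.493 CPM per kb after IRI and 1.89 ± 0.283 in sham. The bottom of the order was turned round, with Fgf2 at 0.355 ± 0.132 CPM per kb above Klb at 0.0626 ± 0.0609 after IRI, and Klb at 0.110 ± 0.0468 above Fgf2 at 0.0341 ± 0.0123 in sham. Both pairs of ranges were separate.

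**Figure D2:**
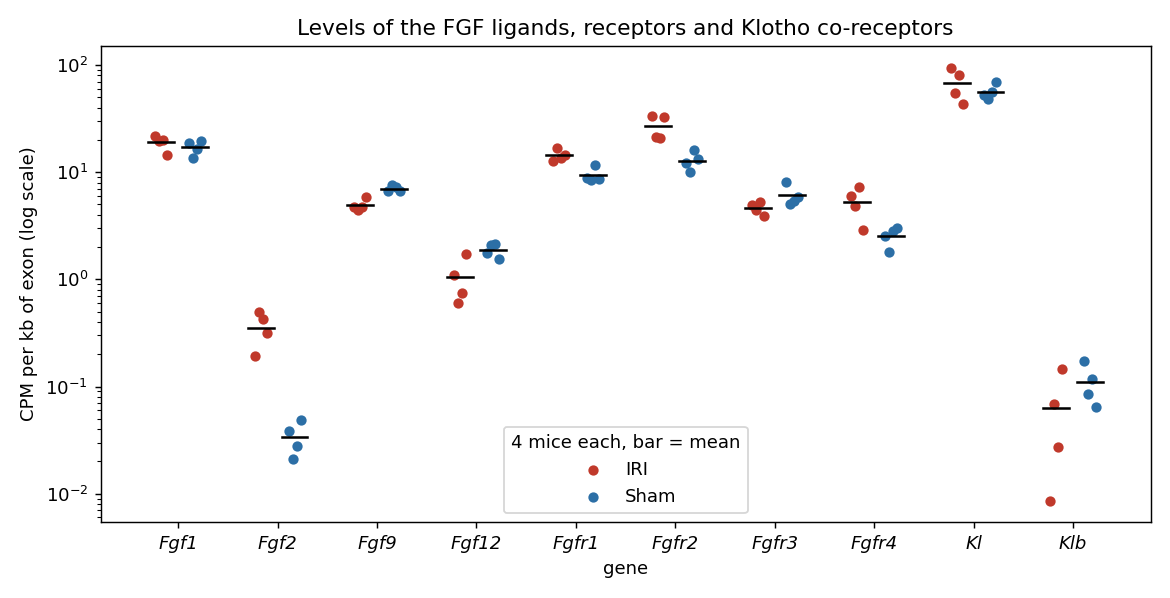
CPM per kb of exon (y axis, log scale) for the 10 genes (x axis), each point a mouse and each bar a mean, with IRI left of sham (n = 4 each). Kl is at the top in both groups, and Fgf2 in sham, at a mean of 0.0341, is at the bottom with Klb.

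The ligands did not move together. Fgf1, the ligand that binds every FGF receptor and leaves cells without a signal peptide, lies on chromosome 18 from 38838672 to 38929470 (GRCm38, the assembly of mm10). It had 119.9, 105.9, 109.6 and 79.2 CPM in IRI replicates 1 to 4, against 102.1, 74.0, 89.9 and 107.2 CPM in sham replicates 1 to 4. The groups overlapped, and IRI replicate 4 was lower than 3 of the 4 sham libraries. The log2 fold change was 0.15 (SE 0.15, edgeR adjusted p = 0.399), and the 95% interval from limma-voom ran from -0.20 to 0.49. Its sign turned to -0.04 with library totals alone and to -0.03 once the file number series entered the model.

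Fgf2, the heparin-binding ligand that is also exported without a signal peptide, lies on chromosome 3 from 37348477 to 37410106. It had 1.29, 3.35, 2.86 and 2.13 CPM in IRI replicates 1 to 4, against 0.261, 0.142, 0.190 and 0.333 CPM in the sham replicates. Every IRI library was above every sham library, and replicate 1 was the lowest of the IRI libraries. These values rest on 167 counts in all IRI libraries and 26 in all sham libraries. The ratio of these sums, scaled by library size, was 9.67, with a 95% interval for counting error alone of 6.37 to 15.2. The fitted log2 fold change was 3.34 (SE 0.44, edgeR adjusted p = 7.9e-05) and stayed between 3.15 and 3.56 in the alternative fits. Fgf2 was thus the member with the largest change and, in sham, the one at the lowest level. Within the IRI group its order of libraries was 2, 3, 4 and 1, the order also seen for the summed endothelial, fibroblast, macrophage and podocyte markers; their part in the rise of Fgf2 was not tested, nor was any such order over 4 libraries.

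The 3′ part of Fgf2 overlaps Nudt6, a Nudix hydrolase gene on the opposite strand, over 640 bp, or 9.44% of the exons of Fgf2. Nudt6 had 123, 36, 66 and 53 counts in IRI replicates 1 to 4, against 120, 130, 154 and 141 counts in the sham replicates. It did not pass the test (log2 fold change -0.42 ± 0.21 SE, edgeR adjusted p = 0.123), and in each of the 8 libraries except IRI replicate 2 it had more counts than Fgf2. The sources used here do not say whether the counting used strand, so reads from the shared 640 bp cannot be assigned to either gene from these counts. Gm43439, annotated on the same strand as Fgf2 over 255 bp of the exons of Fgf2, had no line of its own in the counts.

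Fgf9, a paracrine ligand that maintains nephron progenitors in the embryonic kidney, lies on chromosome 14 from 58070671 to 58112854. It had 21.9, 20.5, 22.2 and 27.3 CPM in IRI replicates 1 to 4, against 31.2, 35.1, 33.5 and 30.8 CPM in the sham replicates. All 4 IRI libraries were below all 4 sham libraries, and 58.6% of all genes tested had groups that did not overlap. The mean was 22.9 ± 2.97 CPM in IRI mice and 32.7 ± 2.02 CPM in sham mice, a log2 fold change of -0.51 (SE 0.10, edgeR adjusted p = 0.00209).

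Fgf12 belongs to the FGF homologous factors, which stay inside the cell, bind voltage-gated sodium channels and are not classical receptor ligands. It lies on chromosome 16 from 28157783 to 28753243. It had 6.86, 3.74, 4.67 and 10.6 CPM in IRI replicates 1 to 4, against 10.9, 13.02, 13.3 and 9.65 CPM in the sham replicates. IRI replicate 4 reached into the sham range and the other 3 IRI libraries lay below it. The log2 fold change was -0.84 (SE 0.26, edgeR adjusted p = 0.0299, 95% interval from -1.48 to -0.29), short of the threshold. Without IRI replicate 4 it was -1.19 with an adjusted p of 0.00209 in edgeR, and DESeq2 with all libraries gave -0.84 with an adjusted p of 0.0097. The order of the IRI libraries, 4, 1, 3 and 2, was the order of their summed principal cell markers (4334, 3371, 2498 and 2361 CPM), and the part of these cells in the difference was not tested.

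The summed level of the receptors was higher in every IRI library, while Fgfr1, Fgfr2 and Fgfr4 were called higher and Fgfr3 was not called. Summed over Fgfr1 to Fgfr4, the level was 57.2, 47.2, 46.9 and 54.3 CPM per kb in IRI replicates 1 to 4, against 31.6, 25.3, 35.8 and 30.7 CPM per kb in the sham replicates. The groups did not overlap, and the ratio of the means was 1.67. Fgfr1, the receptor typical of mesenchyme and the main partner of Klotho for FGF23, lies on chromosome 8 from 25518759 to 25575718. It had 124.9, 165.6, 134.7 and 144 CPM in IRI replicates 1 to 4, against 86.9, 83.2, 114.7 and 84.9 CPM in the sham replicates. Sham replicate 3 stood above the other sham libraries, yet below the lowest IRI library. The log2 fold change was 0.62 (SE 0.12, edgeR adjusted p = 0.00213), and the adjusted p was 0.0169 with library totals alone. IRI replicate 2, with the highest sum of fibroblast and pericyte markers, had the highest Fgfr1, and the part of these cells was not tested. Gm16159, which shares 164 bp with the exons of Fgfr1 on the opposite strand, had 0 counts in all 8 libraries.

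Fgfr2, the receptor through which FGF7 and FGF10 act on the ureteric bud and its derivatives, lies on chromosome 7 from 130162451 to 130266808 on the minus strand. It had 337.1, 212.4, 207.6 and 329.6 CPM in IRI replicates 1 to 4, against 121.2, 99.7, 160.3 and 133.1 CPM in the sham replicates. Every IRI library was above every sham library, and the IRI libraries formed a high pair, replicates 1 and 4, and a lower pair, replicates 2 and 3. The mean was 271.7 ± 71.3 CPM in IRI mice and 128.6 ± 25.2 CPM in sham mice, 2.11-fold higher (log2 fold change 1.08 ± 0.20 SE, edgeR adjusted p = 0.00136). The call held in every alternative fit, with log2 fold changes of 0.89 to 1.19. Of the IRI libraries, replicates 1 and 4 were also those with the higher summed markers of principal cells and of urothelium (344 and 340.3 CPM, against 149.5 and 113.6 CPM in replicates 2 and 3). The summed markers of principal cells were lower in every IRI library than in any sham library, and the part of these cells and of urothelium in the difference of Fgfr2 was not tested.

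Fgfr3, a receptor for FGF1, FGF9 and FGF18 among others, lies on chromosome 5 from 33721724 to 33737068. It had 35.4, 31.5, 37.8 and 27.7 CPM in IRI replicates 1 to 4, against 58.4, 36.2, 38.3 and 42.0 CPM in the sham replicates. The groups overlapped only in that IRI replicate 3 lay above sham replicate 2. The log2 fold change was -0.40 (SE 0.16, edgeR adjusted p = 0.0536, 95% interval from -0.75 to -0.02). It reached -0.59 (adjusted p = 0.00759) with library totals alone and -0.62 (adjusted p = 0.00147) once the file number series entered the edgeR model. G630022F23Rik, annotated on the opposite strand over 998 bp of the exons of Fgfr3, had no line of its own in the counts.

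Fgfr4, the receptor that pairs with beta-Klotho in the liver and binds FGF15 and FGF19, lies on chromosome 13 from 55152818 to 55168759. It had 21.04, 17.0, 25.7 and 10.3 CPM in IRI replicates 1 to 4, against 8.997, 6.44, 9.91 and 10.6 CPM in the sham replicates. IRI replicate 4 lay just under the highest sham library, and the other 3 IRI libraries were above the sham range. The mean was 18.5 ± 6.54 CPM in IRI mice and 8.98 ± 1.81 CPM in sham mice (log2 fold change 1.04 ± 0.29 SE, edgeR adjusted p = 0.00754). This call was the least stable of the 5. It was lost in 7 of the 8 fits that left out 1 library, with edgeR adjusted p from 0.0135 to 0.0232, and held only without IRI replicate 4. It was also lost in limma-voom (adjusted p = 0.0145). Adding the file number series to the edgeR model lost it too, with a log2 fold change of 0.72 (adjusted p = 0.0745). Within the high series, Fgfr4 in IRI replicate 4 lay inside the range of the 3 sham libraries. The IRI libraries ranked 3, 1, 2 and 4 by Fgfr4 and likewise by summed proximal tubule markers (30410, 28330, 18880 and 15290 CPM), whose part in the difference was not tested.

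**Figure D3:**
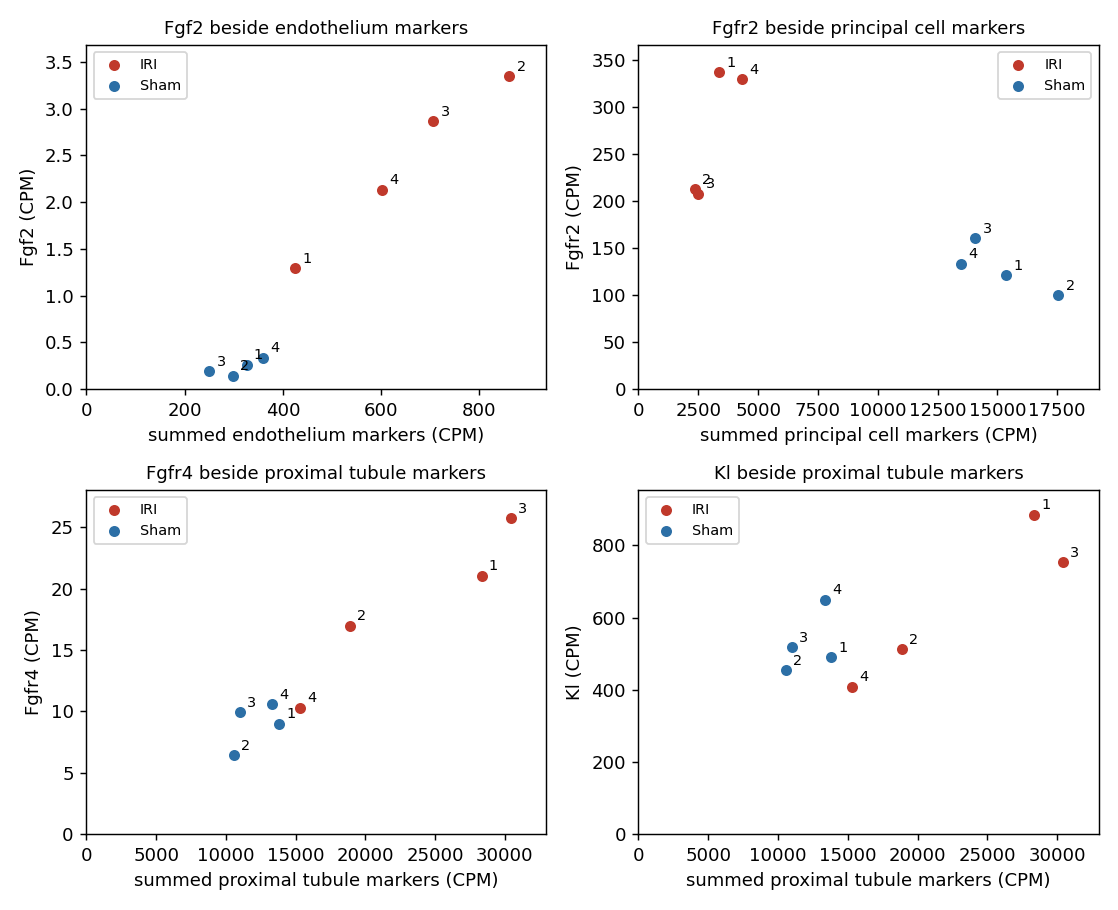
CPM of Fgf2, Fgfr2, Fgfr4 and Kl (y axes) beside the summed CPM of markers of endothelium, principal cells and proximal tubule (x axes), 1 point per mouse labelled with its replicate number (IRI and sham, n = 4 each). Fgf2 and Fgfr4 were highest in the IRI libraries with the highest marker sums, while the Fgfr2 points of both groups separate along both axes.

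The makeup of the receptor transcripts was given by the share of each receptor in the summed level per kb, a quantity that does not depend on the scaling of the libraries. Fgfr3 made up 8.64%, 9.32%, 11.2% and 7.13% in IRI replicates 1 to 4, against 25.8%, 20.04%, 14.9% and 19.1% in the sham replicates. Its share was lower in all 4 IRI libraries than in any sham library, by 10.9 percentage points on average. The exact permutation test, two-sided, gave p = 0.0286, the smallest that 4 against 4 mice allow, and p = 0.114 after adjustment over the 4 receptors. Fgfr2 made up 52.2 ± 8.80% after IRI and 41.4 ± 3.06% in sham (exact permutation p = 0.0571, adjusted p = 0.114, n = 4 each). Its share was 58.9% and 60.6% in IRI replicates 1 and 4, but 45.0% and 44.2% in replicates 2 and 3, beside the sham range of 38.3% to 44.8%. Fgfr1 held 28.4 ± 5.58% after IRI and 30.4 ± 2.91% in sham (exact permutation p = 0.600, adjusted p = 0.600, n = 4 each). Fgfr4 held 10.4 ± 4.14% and 8.19 ± 1.07% in IRI and sham libraries (exact permutation p = 0.371, adjusted p = 0.495, n = 4 each). No share passed after adjustment, and with 4 mice against 4 a single share whose groups are fully apart cannot pass it. Counts per gene do not tell the IIIb and IIIc splice forms of the receptors apart, which differ in the ligands they bind.

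**Figure D4:**
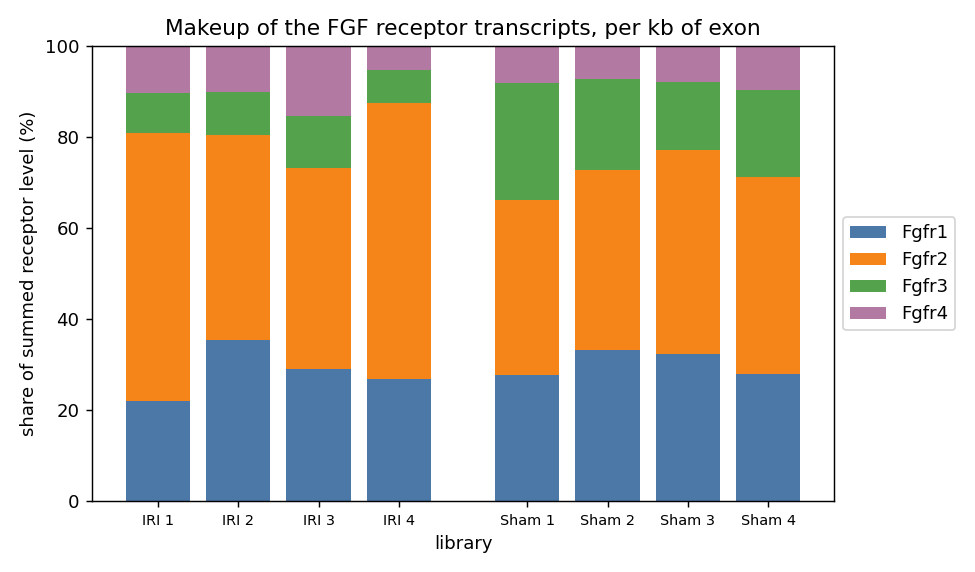
Share of Fgfr1, Fgfr2, Fgfr3 and Fgfr4 in the summed receptor level per kb of exon (y axis, percent) for each library (x axis), IRI left and sham right. Fgfr3 is the narrowest or second narrowest band in IRI libraries, at 7.13% to 11.2%, and is wider in every sham library, at 14.9% to 25.8%.

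Kl lies on chromosome 5 from 150952607 to 150993817. It had 884.5, 512.7, 754.2 and 408.5 CPM in IRI replicates 1 to 4, against 490.9, 455, 517.8 and 649.7 CPM in the sham replicates. The IRI libraries lay on both sides of the sham range, with 2 above it and 1 below it, and the coefficient of variation was 34.1% after IRI and 16.1% in sham. The log2 fold change was 0.28 (SE 0.23, edgeR adjusted p = 0.326) and the 95% interval ran from -0.31 to 0.74. The IRI libraries ranked 1, 3, 2 and 4 by Kl, the order they also had by Fgf1. They ranked 3, 1, 2 and 4 by summed proximal tubule markers, and 1, 2, 3 and 4 by those of the distal convoluted tubule. Markers of tubule segments outside the HoxB7 lineage were abundant in all libraries, and their part in the levels of Kl and Fgf1 was not tested.

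Klb lies on chromosome 5 from 65348411 to 65386957 and was near the limit of these libraries. It had 1, 4, 2 and 14 counts in IRI replicates 1 to 4, against 21, 11, 17 and 8 counts in the sham replicates. IRI replicates 1 to 3 were below the sham range and IRI replicate 4 was inside it. The 21 counts in all IRI libraries and 57 in all sham libraries gave a ratio of 0.555 after scaling, with a 95% counting interval of 0.319 to 0.929. The spread between mice was wider, with a log2 fold change of -0.82 (SE 0.69, edgeR adjusted p = 0.303, 95% interval from -2.79 to 0.30). It was -0.38 without IRI replicate 1 and -1.84 without IRI replicate 4 (edgeR adjusted p = 0.58 and 0.0401).

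Ratios of 2 genes within a library were compared for 3 pairs, after adding 0.5 to each count and dividing by exon length. The log2 ratio of Fgf1 to Fgf2 was 6.83, 5.28, 5.55 and 5.51 in IRI replicates 1 to 4, against 8.82, 9.17, 9.08 and 8.57 in the sham replicates. All IRI ratios were below all sham ratios, and the mean ratio was 55.4 after IRI and 481 in sham (geometric means, difference -3.12 on the log2 scale, exact permutation p = 0.0286, adjusted p = 0.0857, n = 4 each). The log2 ratio of Fgfr2 to Fgfr1 was 0.88 ± 0.50 after IRI and 0.45 ± 0.16 in sham (exact permutation p = 0.200, adjusted p = 0.286, n = 4 each). The log2 ratio of Kl to Klb was 10.43 ± 2.03 after IRI and 9.03 ± 0.73 in sham (exact permutation p = 0.286, adjusted p = 0.286, n = 4 each). The difference of the Kl to Klb ratio, 1.396 with all libraries, was 0.59 without IRI replicate 1 and 2.15 without IRI replicate 4. None of the 3 passed after adjustment, and with 4 against 4 mice a single ratio whose groups are fully apart cannot pass it.

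To set a receptor gene that rose beside the most abundant member, which was not called, the sequence before the start of Fgfr2 and of Kl is given 5′ to 3′ on the strand of each gene. Both are 250 bp windows from RefSeq on GRCm38.p6, at chr7:130266809-130267058 (minus strand) and chr5:150952357-150952606 (plus strand). Neither holds an exon annotated in GENCODE M21. That annotation puts the start of Fgfr2 at 130266263, inside the RefSeq gene, so the Fgfr2 window does not adjoin the GENCODE start. Capitals mark matches on either strand to any of 5 short motifs.
Fgfr2: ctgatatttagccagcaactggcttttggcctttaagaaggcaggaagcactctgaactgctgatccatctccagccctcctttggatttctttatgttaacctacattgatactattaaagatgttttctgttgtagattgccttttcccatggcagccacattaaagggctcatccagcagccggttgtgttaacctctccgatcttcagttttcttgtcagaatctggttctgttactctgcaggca
Kl: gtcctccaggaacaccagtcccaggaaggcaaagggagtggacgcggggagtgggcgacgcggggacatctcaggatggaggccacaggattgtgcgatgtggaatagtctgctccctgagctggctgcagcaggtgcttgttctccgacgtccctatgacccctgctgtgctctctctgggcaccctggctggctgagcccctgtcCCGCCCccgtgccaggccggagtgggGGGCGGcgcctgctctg
The motifs searched on both strands were ACGTG, the core of the hypoxia response element, TGANTCA for AP-1, TTCNNNGAA for STAT factors, GGGCGG, the GC box, and TATAAA, the TATA box. Over 32851 windows of the same length in RefSeq, 16.6% held ACGTG, 6.75% TGANTCA, 7.02% TTCNNNGAA, 32.7% GGGCGG and 12.4% TATAAA. The Kl window held 2 GC boxes and none of the others, and had a GC content of 66.8%. The Fgfr2 window held none of the 5 motifs in these letters and had a GC content of 44.0%, against a median of 52.4% over all windows.

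The other FGF genes were nearly all too low to test. Of 18, 4 were at 0 in all libraries and 4 passed the filter, and of these 0 were higher and 2 were lower. The share called was near the 49.7% of all genes tested. Fgf11, another FGF homologous factor, was at 2.12 ± 0.386 CPM in IRI mice and 11.2 ± 0.936 CPM in sham mice (log2 fold change -2.40, edgeR adjusted p = 4.0e-06). Fgf18, a secreted ligand of the FGF8 subfamily, was at 1.26 ± 0.650 CPM in IRI mice and 4.23 ± 1.98 CPM in sham mice (log2 fold change -1.74, edgeR adjusted p = 0.00685), a call that was lost when any library other than IRI replicate 3 or sham replicate 4 was left out (adjusted p up to 0.02). Fgf10 (log2 fold change 1.20, edgeR adjusted p = 0.239) and Fgf16 (-1.30, adjusted p = 0.0191) did not pass. Of all the FGF family genes called, Fgf9, Fgf11 and Fgf18 were lower after IRI and Fgf2 was higher.

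Of 10 other receptors and binding proteins tested, 3 were higher and 2 lower, with a median log2 fold change of 0.05. The share called in either direction was near the 49.7% of all genes tested. Cd44, a hyaluronan receptor that can carry heparan sulfate, was at 68.0 ± 9.45 CPM in IRI mice and 11.6 ± 7.24 CPM in sham mice (log2 fold change 2.55, edgeR adjusted p = 0.000447). Fgfbp1, a carrier that releases FGFs from the matrix, had a log2 fold change of 1.10 (edgeR adjusted p = 0.00290), and Fgfrl1, the FGF receptor with no kinase domain, had 0.76 (adjusted p = 0.00148). With the file number series in the model neither passed (edgeR adjusted p = 0.0248 for Fgfbp1 and 0.0103 for Fgfrl1). Fgfbp1 also failed without sham replicate 1 or 4 (0.0116 each). L1cam, an adhesion molecule of the collecting duct that can interact with FGF receptors, was at 86.0 ± 24.1 CPM in IRI mice and 356 ± 52.1 CPM in sham mice (log2 fold change -2.05, edgeR adjusted p = 2.3e-05). Flrt1, a membrane protein that binds FGF receptors, had a log2 fold change of -1.11 (adjusted p = 4.9e-06).

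Among 13 heparan sulfate core proteins, 4 were higher and 2 lower, with a median log2 fold change of 0.32. Sdc4 and Sdc1, both syndecans, had log2 fold changes of 1.28 (edgeR adjusted p = 4.2e-06) and 1.41 (8.1e-05), and the glypican Gpc4 had 1.10 (adjusted p = 0.000367). Agrn, a core protein of basement membranes, was lower (log2 fold change -0.87, edgeR adjusted p = 0.00213). Of 19 enzymes of heparan sulfate synthesis and editing, 5 were higher and 3 lower, with a median of 0.06. The number higher was 3 or 4 whenever 1 library was left out (3 without sham replicate 1, 2 or 4), and the split turned to 2 higher and 4 lower with library totals alone and 3 higher and 4 lower with upper quartile factors. Hs3st1, a 3-O-sulfotransferase, was at 68.8 ± 17.6 CPM in IRI mice and 12.2 ± 1.07 CPM in sham mice (log2 fold change 2.49, edgeR adjusted p = 4.6e-06), whereas Hs3st6, of the same enzyme family, was at 0.571 ± 0.145 CPM in IRI mice and 2.22 ± 0.220 CPM in sham mice (-1.98, adjusted p = 8.0e-05). Ext1, a polymerase of the chain, had a log2 fold change of 0.82 (adjusted p = 5.2e-06), and Extl1 and Extl2, related glycosyltransferases, had -1.23 (0.00191) and -0.84 (0.000140). Hs6st1, a 6-O-sulfotransferase, was higher by 0.45 (edgeR adjusted p = 0.00660). This call was lost with library totals alone (0.26, adjusted p = 0.0633), with upper quartile factors, with no filter and with the file number series. It was also lost when IRI replicates 1 or 4, or sham replicates 1, 2 or 4, were left out (adjusted p up to 0.0237). The share called in either list was near that of all genes.

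The export of Fgf1 and Fgf2 does not use a signal peptide and relies on other proteins. Of 6 such genes tested, 3 were higher and 0 lower, with a median log2 fold change of 0.31. The median over all genes tested was -0.01. The share called in either direction was near the 49.7% of all genes tested. Anxa2, a phospholipid-binding protein, was at 916 ± 180.4 CPM in IRI mice and 151.7 ± 27.1 CPM in sham mice (log2 fold change 2.59, edgeR adjusted p = 4.7e-06). Sphk1, a sphingosine kinase, was at 106.8 ± 5.10 CPM in IRI mice and 18.9 ± 3.09 CPM in sham mice (log2 fold change 2.50, adjusted p = 8.7e-07). Tec, a kinase that phosphorylates FGF2, had a log2 fold change of 0.54 (adjusted p = 0.00237), which was 0.34 (adjusted p = 0.0179) with library totals alone.

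Downstream of the receptors, the 24 adaptors and Ras-MAPK genes had 11 higher and 3 lower, with a median log2 fold change of 0.18. These were 45.8% and 12.5% of the list, against 25.1% higher and 24.6% lower among all genes tested. Nras, a Ras protein, had a log2 fold change of 1.80 (edgeR adjusted p = 5.4e-07), and the kinase Rps6ka3 had 1.59 (1.8e-06). Sos1, an exchange factor for Ras, had -0.57 (adjusted p = 0.000132), the kinase Araf had -0.47 (0.00229), and Frs2, the docking protein of FGF receptors, had -0.29 (0.00506). The call of Frs2 was lost when IRI replicates 1 or 2, or sham replicates 1 or 3, were left out (edgeR adjusted p from 0.0139 to 0.0171). It was also lost with the file number series (0.0155). With library totals alone the split was 5 higher and 8 lower, so the balance of this list depended on the scaling.

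The targets and feedback genes of FGF and MAPK signalling were higher nearly throughout. Of 17 tested, 16 were higher and 0 lower, against 25.1% higher among all genes tested, with a median log2 fold change of 1.94, and 15 or 16 were higher when any 1 library was left out. Dusp5, a phosphatase of nuclear ERK, was at 76.3 ± 6.86 CPM in IRI mice and 3.27 ± 0.483 CPM in sham mice (log2 fold change 4.54 ± 0.15 SE, edgeR adjusted p = 3.1e-07). Spred3, an inhibitor of Ras activation, was at 32.3 ± 2.83 CPM in IRI mice and 1.69 ± 0.598 CPM in sham mice (log2 fold change 4.25 ± 0.24 SE, adjusted p = 1.8e-06). Spry4, a Sprouty feedback inhibitor, was at 135.1 ± 43.4 CPM in IRI mice and 10.1 ± 1.80 CPM in sham mice (log2 fold change 3.75 ± 0.27 SE, adjusted p = 3.8e-06). Il17rd, a membrane inhibitor of FGF signalling, was the 1 gene of the list that did not pass (log2 fold change 0.69, edgeR adjusted p = 0.0363). Its IRI libraries were all above its sham libraries, and 58.6% of all genes tested had groups that did not overlap. This list, like the others, was drawn up with earlier results of these data known, so its count is a description and not a test. These genes answer to many receptors that signal through MAPK, and FGF signalling itself was not measured.

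**Figure D5:**
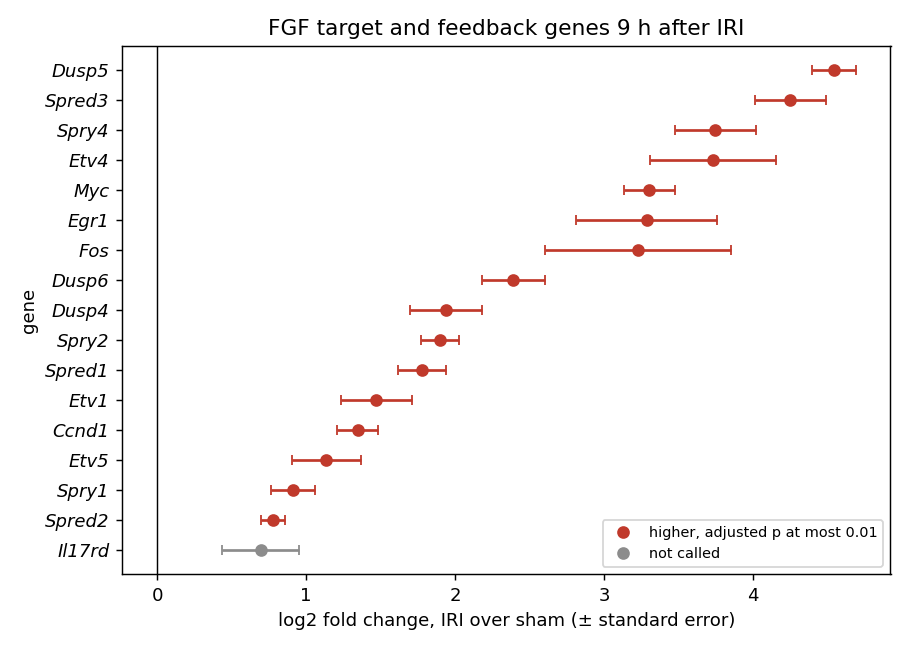
Log2 fold change, IRI over sham (x axis), of the 17 FGF target and feedback genes tested (y axis), with bars of 1 standard error (n = 4 mice per group). All 17 points lie right of 0, and Dusp5, at 4.54, lies farthest to the right.

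Of 18 genes of the FGF23-Klotho axis, 9 were higher and 4 lower, against 25.1% and 24.6% of all genes tested, with a median log2 fold change of 1.17. Of the 18, 3 were also on the marker lists, Slc34a1 for the proximal tubule and Calb1 and Trpv5 for the distal convoluted tubule, so the count is not separate from those of the markers. Slc20a1, a housekeeping phosphate transporter, was at 154.5 ± 29.2 CPM in IRI mice and 23.4 ± 4.37 CPM in sham mice (log2 fold change 2.72, edgeR adjusted p = 3.7e-06). Slc34a2 and Slc34a3, sodium-phosphate cotransporters, had log2 fold changes of 2.66 (adjusted p = 5.7e-05) and 2.31 (2.5e-05). Slc34a3 is typical of the proximal tubule, outside the HoxB7 lineage, and the summed markers of that tubule were higher in the same libraries; their part in these changes was not tested. Fam20c, the kinase that marks FGF23 for cleavage, was at 40.6 ± 5.24 CPM in IRI mice and 191.8 ± 32.5 CPM in sham mice (log2 fold change -2.24, edgeR adjusted p = 3.2e-06). Calb1, a calcium-binding protein of the distal and connecting tubule, had -2.15 (adjusted p = 0.000288), and Sgk1, a kinase induced by mineralocorticoids, had -0.98 (0.000693). Fgf23 itself did not pass the filter.

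The genes most like each called member over the 8 libraries were found by Pearson's r of log2 CPM among the 11295 or 11296 genes with a mean of at least 5 CPM, as a description in which the difference between the groups takes part. Zeb1, a repressor of epithelial genes, was most like Fgf2 (r = 0.999), and 951 genes reached an r of at least 0.95 with it. Fgf9 was most like Znfx1 (r = 0.995, with 365 genes at 0.95 or more) and Fgfr1 most like Gfod1 (r = 0.986, with 84 genes). Fgfr2 was most like Hs6st1, the heparan sulfate 6-O-sulfotransferase named above (r = 0.988, with 47 genes), and Fgfr4 most like Grtp1 (r = 0.992, with 76 genes).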

How the data were processed

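RNA bound to tagged ribosomes was sequenced from 4 IRI and 4 sham mice, 1 library each, after ribosomal RNA depletion. The authors aligned the reads with TopHat2 2.1.1 to mm10, counted them per gene symbol with HTSeq and deposited raw counts with no normalization; the submitters' processing notes also name DESeq2. For the counting, neither the annotation release nor the mode or strand option was given in the sources used here. HTSeq's summary lines that name no gene (43.3% to 52.3% of the total in IRI libraries, 33.3% to 37.7% in sham libraries) stayed out of library sizes and tests.

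With the deposited counts as input, edgeR 4.0.16 (R 4.3.3) tested the 14606 genes that passed filterByExpr (minimum count 10, minimum total 15) with TMM factors, the quasi-likelihood test, Benjamini-Hochberg adjustment and a threshold of 0.01. Standard errors and intervals came from limma 3.58.1 (voom). Alternatives were other scalings, no filter or a minimum of 1 CPM in at least 4 libraries, DESeq2 1.42.0 and limma-voom. Further alternatives were a threshold of 0.05, a replicate block, the file number series and each library left out. Shares and ratios were tested with exact permutation tests in scipy 1.17.1, with a threshold of 0.05 after adjustment. Positions and overlaps came from RefSeq and GENCODE M21 on GRCm38, and 98.5% of symbols matched; exon lengths are from GENCODE, leaving out exons that lie more than 10000 bp outside the RefSeq gene. The alternatives were applied to the lists by a choice made after seeing the data. The fits were run on simulated counts in which few genes changed, unlike in these data, so that check does not bear on the choice of scaling.

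The members and lists were chosen with earlier results of these data known. Named were all members, genes that share their exons, for each list up to 3 genes per direction with the largest change among called genes whose groups did not overlap and whose mean reached 1 CPM, and the genes most like each called member. Fgf10, Fgf16, Fgf23 and Il17rd were named after their values were seen. For 1 further gene picked by the rule, which was part of all fits and counts, no result is reported here.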

Additional observations from a re-analysis of the deposited data

Results flagged for a closer look

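Of 34 groups of 4 values examined, 1 held a library far from the others, and chance flags about 1 in 20 such groups. Fgfr1 in sham replicate 3 was at 114.7 CPM, while the other 3 sham libraries were at 83.2 to 86.9 CPM. Without sham replicate 3 the difference of Fgfr1 after IRI against sham stayed past the threshold, as it did without each of the other libraries.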

How the results depend on the processing

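Fgf2 and Fgfr2 kept direction and call in all alternatives run, and Kl and Klb stayed uncalled with the same sign, Klb being left untested by the filter of 1 CPM and ranging from -1.84 to -0.38 when 1 library was left out. Fgfr4 lost its call with upper quartile factors (0.92), library totals alone (0.85), limma-voom (0.97) and the file number series (0.72). It ran from 0.84 to 1.25 when 1 library was left out. With library totals alone Fgfr1 lost its call (0.43), Fgfr3 gained one (-0.59), Fgf1 turned to -0.04, and 2 members were higher and 2 lower. Once the file number series entered the model, Fgf1 turned to -0.03, Fgfr3 was called (-0.62) and 2 members were lower. Fgf12 was called with DESeq2 (-0.84) and at a threshold of 0.05 (-0.84), each giving 2 lower members, and ran from -1.19 to -0.66 with 1 library left out, where the number of lower members ran from 1 to 2. In each of these cases the cause was not tested. Same-numbered IRI and sham libraries did not deviate together (r from -0.535 to -0.073), while libraries with different numbers had r from -0.275 to 0.49. These values gave no sign that the numbers pair the mice, but they cannot exclude it. The fit with a replicate block called 5582 genes, against 7262 without it, and gave 0 lower members, with Fgf9 at -0.51 (edgeR adjusted p = 0.0138) and Fgfr4 at 1.00 (0.0197).

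Depth limits Fgf2 and Klb most, with 4 to 9 counts of Fgf2 per sham library and 1 to 14 counts of Klb per IRI library. When 1 library was left out, shares and ratios were given as values with no test, since 3 against 4 mice cannot reach the threshold. The share difference of Fgfr1 then ran from -4.39 to 0.09 percentage points.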
